A study of Sorghum bicolor with 63 samples.

Results

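The genes of the glutamine synthetase/glutamate synthase (GS/GOGAT) cycle were followed in leaf, lateral root and primary root of sorghum seedlings (line BTx623) through nitrate deprivation and recovery. The 6 genes were taken by gene ID from the names used in the study's gene lists, out of 35567 genes in the expression tables. They are GS1-1 (SORBI_3001G451500), GS1-3 (SORBI_3004G247000), GOGAT1 (SORBI_3002G402700) and the 3 genes listed as GOGAT2, named here GOGAT2-7G (SORBI_3007G174600), GOGAT2-K (SORBI_3K010300) and GOGAT2-4G (SORBI_3004G209300). All plants were grown in hydroponics, and no mutant, transgene or second line was used. The groups of each tissue were normal nitrogen (0 h), nitrate deprivation for 0.5, 3 and 24 h, recovery after nitrate had been returned (24.5 and 48 h on the scale of the start), and a recovery control labelled for 48 h. With 3 libraries per group there were 21 libraries per tissue and 63 in all, each from RNA of pooled plants. The study's methods do not describe the recovery control. No control was labelled for 3 h, so at 3 h, and in the step from 0.5 to 3 h, deprivation and time of day cannot be told apart. By the labelled hours the 24 h and 48 h groups fall whole days after 0 h, and plant age differs in each comparison with 0 h. It also differs between 24 h and both 48 h groups, the control included, and no control was labelled for 24 h. In those comparisons too, nitrate supply and plant age cannot be told apart. Labels and methods differ in the nutrient solution, the number of plants pooled, the sequencer and whether the last sampling came 24 or 48 h after the return.

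Nitrate taken up by a plant is reduced to nitrite by nitrate reductase and then to ammonium by nitrite reductase. Glutamine synthetase joins ammonium to glutamate to give glutamine, and glutamate synthase moves the amide nitrogen of glutamine to 2-oxoglutarate to give glutamate, so that the pair forms a cycle through which inorganic nitrogen enters amino acids. GS1 enzymes are the cytosolic form of glutamine synthetase, which works in primary assimilation in roots and in nitrogen remobilisation in leaves, while glutamate synthases work in plastids with either ferredoxin or NADH as electron donor. The gene names do not state the donor for each sorghum GOGAT, and the plastidic glutamine synthetase is not among the 6 genes.

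Expression was given as TPM, the transcript count scaled to a fixed total per library and corrected for transcript length, so that levels of different genes can be set side by side. Each column sums to 1e+06, the number of reads is unknown, and errors below are the spread of the 3 libraries of a group. Between 17180 and 18702 genes reached 1 TPM in the leaf libraries. The lateral root library labelled 0 h replicate 1 stood apart: its mean correlation with its own group was 0.731, and its nearest library was a leaf library (r = 0.994). Its summed level of the 3 leaf marker genes was 19819 TPM, against 78.4 to 273 TPM in the other 20 lateral root libraries and 11182 to 25507 TPM in leaf. None of its 3 root marker genes (NRT2.1a, NRT2.1b and NAR2.1, of high-affinity nitrate uptake) reached 1 TPM, and their sum was 0.174 TPM, against 54.8 to 2777 TPM in the other lateral root libraries. Lateral root is therefore given with and without this library. Of the leaf markers, LHCB5 and PPDK2 set the leaf apart, with medians of 4778 and 16851 TPM there, whereas PEPC6 had a median of 12.0 TPM in leaf and 67.2 TPM in primary root. The primary root library at 24.5 h replicate 3 had 30736 genes at 1 TPM or more and a leaf marker sum of 1720 TPM. Replicate 1 of the same group had a lateral root library at 24.5 h as its nearest (r = 0.984).

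GS1-1 differed between tissues and between times. In lateral root it stood between 2833 and 3129.7 TPM at 0 h (library that stood apart left out) and at 0.5 h without nitrate, fell within 3 h and was still below the start at the last sampling. Primary root showed the same fall from a lower level, and in leaf the same gene was a minor transcript. Tissue was harvested in bulk, so fewer cells that express a gene and less RNA per cell cannot be told apart here or below.

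**Figure D1:**
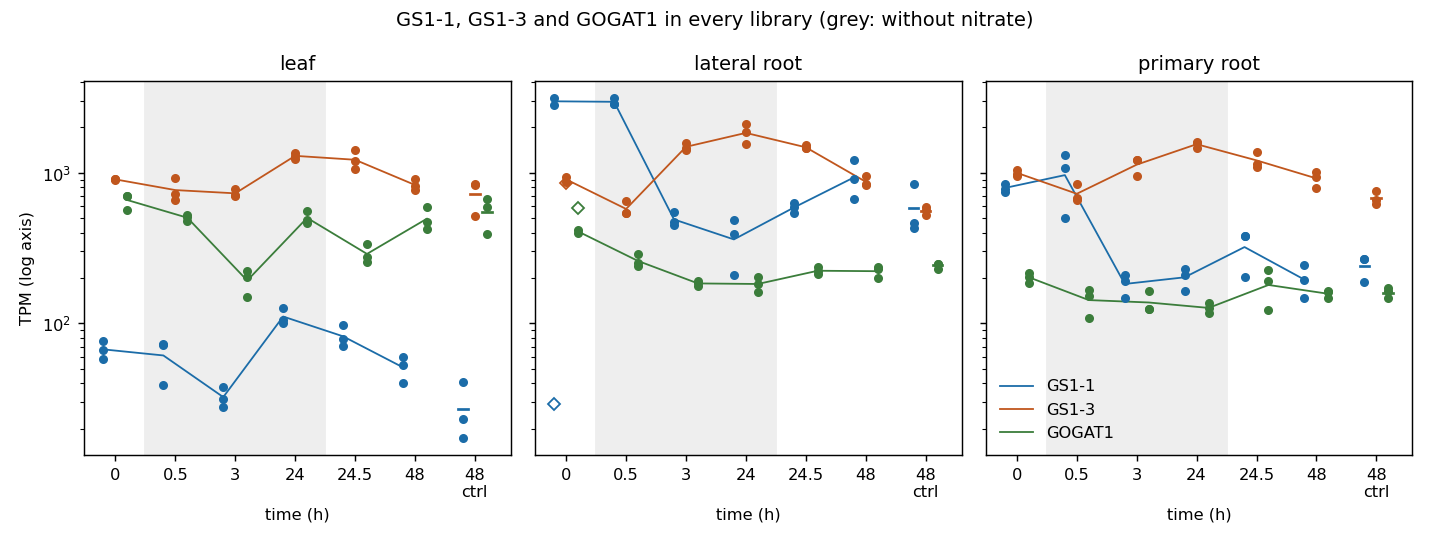
TPM (log axis) of GS1-1, GS1-3 and GOGAT1 in each library of leaf, lateral root and primary root against the labelled time in hours (positions not to scale); points are libraries, lines join the group means up to 48 h, short bars are the means of the 48 h control, and open diamonds mark the lateral root library 0 h replicate 1, which is left out of the means. GS1-1 in lateral root has a mean of 2955 TPM at 0.5 h and 489 TPM at 3 h, while GS1-3 reaches its highest mean at 24 h in all 3 tissues.

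In lateral root the 3 libraries at 0 h held 29.0, 3123 and 2833 TPM of GS1-1. The first of these is the library that stood apart, and its 29.0 TPM lies within the range of the leaf libraries, 17.2 to 126 TPM. At 0.5 h without nitrate the values were 2868, 3129.7 and 2867 TPM, which overlap the other two values at 0 h. At 3 h they were 470.2, 448 and 549.9 TPM, each far below every value at 0.5 h. At 24 h they were 482, 389.6 and 209 TPM, the lowest group mean of the tissue (360.3 ± 139, SD, n = 3). After the return of nitrate they were 592, 538 and 628 TPM at 24.5 h and 1209, 905 and 669 TPM at 48 h, so that both recovery groups lay above all 24 h libraries and below all 0.5 h libraries. The 48 h control held 847, 426 and 464 TPM and overlapped the 48 h recovery group.

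The change was tested with limma on log2(TPM + 1), with Benjamini-Hochberg adjustment over all genes tested in the tissue, and a gene counted as called when its adjusted p was under 0.05 and its absolute log2 fold change over 1. "Rose" and "fell" are used for called changes only. Without the library that stood apart, GS1-1 fell between 0.5 and 3 h in lateral root by 2.60 on the log2 scale (SE 0.28, adjusted p = 3.44e-06). Against 0 h the log2 fold change at 3 h was -2.61 (adjusted p = 2.57e-05) and after 24 h it was -3.12 (adjusted p = 4.36e-06). In the recovery groups it was -2.34 for 24.5 h (adjusted p = 4.84e-05) and -1.72 for 48 h (adjusted p = 0.00137). These 4 comparisons share the 0 h libraries, of which only 2 remain. GS1-1 rose from 24 h to 48 h by 1.40 (adjusted p = 0.00176), whereas the difference between 24 h and 24.5 h, 0.78, was not called (adjusted p = 0.0898). The 48 h control was also below 0 h, by a log2 fold change of -2.43 (adjusted p = 0.000114), and 48 h recovery did not differ from it beyond the threshold (0.71, adjusted p = 0.196). Nor was the difference between 24 h without nitrate and this control called, and the values of both groups overlapped. With all 21 libraries limma called none of the 11 comparisons of GS1-1 in lateral root, with 1 at an unadjusted p under 0.05: the log2 fold change against 0 h was -0.40 at 3 h (adjusted p = 0.829) and 0.49 at 48 h (adjusted p = 0.808). The difference between 0.5 and 3 h, the same -2.60, had an SE of 1.12 and an adjusted p of 0.201 in that fit, and an adjusted p of 9.36e-05 in a fit of only the groups compared.

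Primary root held 749, 783 and 843 TPM of GS1-1 at 0 h and 1079, 1314 and 497 TPM at 0.5 h. At 3 h the values were 190.2, 148 and 209 TPM and at 24 h 231, 164 and 211 TPM. Both deprivation groups lay wholly below 0 h and 0.5 h and overlapped each other. After the return of nitrate the libraries held 378, 203 and 381 TPM at 24.5 h and 195, 242 and 147 TPM at 48 h, and the 48 h control held 188, 268 and 267 TPM. In primary root every group from 3 h on was therefore below every library at 0 h, the 48 h control included. The values at 24 h without nitrate overlapped those of this control, and the difference between both was not called. GS1-1 fell between 0.5 and 3 h by 2.29 on the log2 scale (SE 0.31, adjusted p = 0.000147). Against 0 h it was lower by a log2 fold change of -2.12 at 3 h (adjusted p = 0.000313) and -1.98 after 24 h (adjusted p = 0.000604). The recovery groups differed from 0 h by -1.36 (24.5 h, adjusted p = 0.00719) and -2.04 (48 h, adjusted p = 0.000833), and the 48 h control by -1.73 (adjusted p = 0.00612). No step back up was called: 24.5 h exceeded 24 h by 0.62 (adjusted p = 0.222), with overlapping values.

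In leaf GS1-1 was a low transcript with a different course. The libraries held 58.1, 66.6 and 76.5 TPM at 0 h, 72.9, 38.8 and 71.7 TPM at 0.5 h and 38.0, 31.4 and 27.6 TPM at 3 h. At 24 h they held 101, 126 and 106 TPM, the highest values of the tissue. Recovery libraries held 97.2, 78.1 and 70.4 TPM at 24.5 h and 60.0, 52.7 and 40.2 TPM at 48 h, and the 48 h control held 17.2, 40.4 and 23.1 TPM. The 24 h libraries thus lay above all others of the leaf, and the control was the lowest group. GS1-1 fell by 1.03 from 0 h to 3 h (SE 0.27, adjusted p = 0.0146), a call that was lost when 0 h replicate 3 or 3 h replicate 3 was left out (-0.93 each, adjusted p = 0.0587 and 0.0606). The difference between 24 h and 0 h, 0.72, was not called (adjusted p = 0.115), while GS1-1 fell by 1.12 from 24 h to 48 h (adjusted p = 0.0082), a change of -0.96 without 48 h replicate 3. The 48 h control differed from 0 h by -1.36 on the log2 scale (adjusted p = 0.0034, or 0.0513 with only the groups compared in the fit), and 24 h was 2.08 above that control (adjusted p = 8.25e-05).

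GS1-3 was the more even of both glutamine synthetases. It was among the abundant transcripts of each tissue, from 517 to 1408 TPM in leaf, 527 to 2103 TPM in lateral root and 618 to 1604 TPM in primary root, and its group mean was highest after 24 h without nitrate in every tissue. In lateral root it stood at 855, 870.2 and 933 TPM at 0 h and at 539, 536 and 648 TPM at 0.5 h. It then held 1415, 1454 and 1584 TPM at 3 h, and 1849, 2103 and 1559 TPM at 24 h. The 0.5 h libraries were below all 0 h libraries, and the 3 h and 24 h libraries were above all of both. After the return of nitrate it stood at 1517, 1449 and 1457 TPM at 24.5 h and at 950.4, 826 and 836 TPM at 48 h, the latter overlapping 0 h, and the 48 h control was lowest with 593, 527 and 561.2 TPM. The library that stood apart was not far from its group for this gene.

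Without that library, GS1-3 rose in lateral root from 0.5 to 3 h by 1.37 on the log2 scale (SE 0.11, adjusted p = 2.49e-07) and, with all libraries, by the same amount (adjusted p = 6.14e-05). Over this interval GS1-1 fell, so both glutamine synthetase genes were called in opposite directions. GS1-3 at 24 h was 1.02 above 0 h (adjusted p = 4.09e-05). This call sat at the fold threshold. With the library that stood apart kept in, the change was 1.04, or 0.79 after median-of-ratios scaling and 0.94 without 24 h replicate 2. Its adjusted p was 0.516 with only the groups compared in the limma fit, which also kept that library at 0 h. From 24 h to 48 h GS1-3 fell by 1.07 (adjusted p = 6.48e-06), or by 0.97 without 24 h replicate 2, and 24 h was 1.70 above the 48 h control (adjusted p = 5.91e-08). At 0.5 h the change against 0 h was -0.66, with an adjusted p of 0.00154 but under the fold threshold.

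In primary root GS1-3 was likewise lowest in the control and at 0.5 h and highest at 24 h, with smaller steps. The libraries held 956, 1049 and 986 TPM at 0 h, 679, 658 and 836 TPM at 0.5 h, 1222, 1214 and 956 TPM at 3 h and 1604, 1460.5 and 1572 TPM at 24 h. The 24 h group was above all other libraries of the tissue. Recovery libraries held 1379, 1096 and 1146 TPM at 24.5 h and 938, 795 and 1016 TPM at 48 h, and the control held 618, 659 and 754 TPM. The change from 0.5 to 3 h was 0.64 (adjusted p = 0.00447) and that from 0 to 24 h 0.63 (adjusted p = 0.00667), both under the fold threshold, whereas 24 h exceeded the 48 h control by 1.19 (SE 0.14, adjusted p = 4.46e-05), the only call of GS1-3 in this tissue. In leaf no comparison of GS1-3 was called by limma, with 2 of 11 at an adjusted p under 0.05 and 4 at an unadjusted p under 0.05. Its changes over these comparisons ran from -0.64 to 0.86, under the fold threshold. The 0 h leaf libraries held 907, 890.3 and 909.6 TPM and the 24 h libraries 1239.8, 1341 and 1299 TPM, which do not overlap (0.52, adjusted p = 0.0892). At 3 h the leaf held 700.3, 779.9 and 707 TPM, overlapping the 662 to 918 TPM at 0.5 h (change -0.06, adjusted p = 0.891).

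The balance between both cytosolic glutamine synthetases differed between times in the roots. GS1-1 made up 76.7 ± 2.11% (SD, n = 2, without the library that stood apart) of the summed GS1-1 and GS1-3 TPM in lateral root at 0 h and 83.7 ± 1.94% (n = 3) at 0.5 h. Its share was then 24.7 ± 1.13% at 3 h and 16.0 ± 4.44% at 24 h, and after the return of nitrate 28.4 ± 1.56% at 24.5 h and 50.9 ± 5.89% at 48 h. The library values of 0 and 0.5 h lay above those of all later groups. The share in the 48 h control, 49.6 ± 7.99%, overlapped that of the 48 h recovery group. With all 3 libraries the 0 h mean was 52.2 ± 42.4%.

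**Figure D2:**
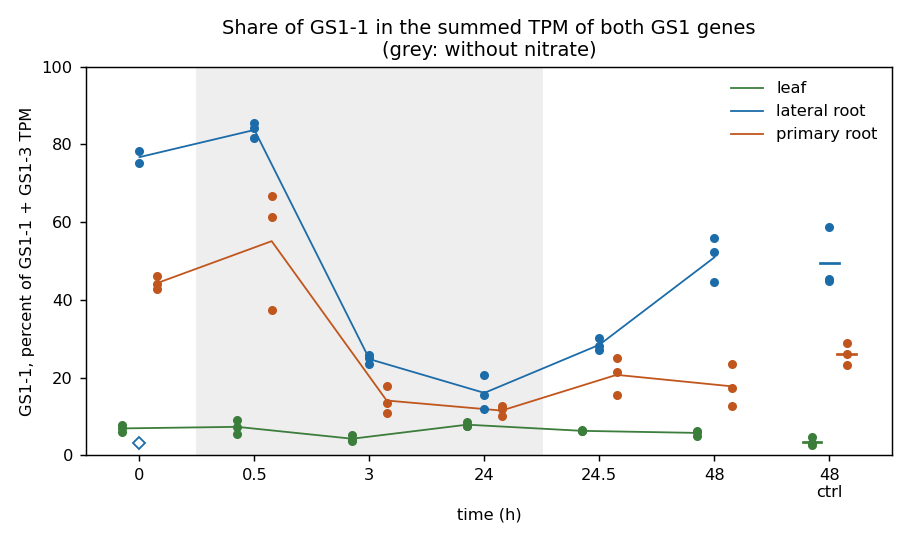
GS1-1 as a percent of the summed TPM of GS1-1 and GS1-3 in each library against the labelled time in hours (positions not to scale), for the 3 tissues; points are libraries, lines join group means, short bars are the control means, and the open diamond is the lateral root library 0 h replicate 1, left out of the means. Lateral root goes from 83.7% at 0.5 h to 16.0% at 24 h and back to 50.9% at 48 h, primary root from 55.1% to 11.5%, and no leaf library exceeds 9.06%.

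In primary root the share of GS1-1 was 44.3 ± 1.68% at 0 h and 55.1 ± 15.7% at 0.5 h, then 14.1 ± 3.57% at 3 h and 11.5 ± 1.26% at 24 h without nitrate. After its return it was 20.7 ± 4.71% (24.5 h) and 17.7 ± 5.37% (48 h). Here all shares from 3 h on lay below those at 0 h, and the control held 26.1 ± 2.81%. In leaf it ran from 2.72 to 9.06% over the 21 libraries. The summed level of both genes in lateral root was 3879 ± 160.4 TPM at 0 h (n = 2) and 1974 ± 139 TPM at 3 h (n = 3). Between 3 and 24.5 h the sum in lateral root stayed between means of 1974 and 2197 TPM, with GS1-3 high where GS1-1 was low. This did not hold in the 48 h control, where both genes were low. The sum there was 1139 ± 262.5 TPM in lateral root and 918 ± 108 TPM in primary root. In primary root the mean sum was 1313 TPM at 3 h, 1748 TPM at 24 h, 1528 TPM at 24.5 h and 1111 TPM at 48 h. These shares and sums were not tested on their own.

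GOGAT1 was the main glutamate synthase transcript: it made up between 90.9 and 98.4% of the summed TPM of the 4 GOGAT members in each library. In leaf it held 705, 705 and 563 TPM at 0 h and 479, 521 and 507 TPM at 0.5 h, which do not overlap. It was lowest at 3 h without nitrate, with 149.9, 224 and 203 TPM, and next lowest at 24.5 h, with 275, 255 and 336 TPM soon after nitrate had been returned. Between these times it stood at 487, 554 and 462 TPM at 24 h, so that neither low group overlapped the others. At 48 h it held 471, 424 and 589 TPM and in the control 389, 672 and 594 TPM, which overlap. GOGAT1 fell by 1.40 from 0.5 to 3 h (SE 0.20, adjusted p = 0.00054), and differed from 0 h by -1.78 at 3 h (adjusted p = 2.79e-05) and by -1.19 at 24.5 h (adjusted p = 0.0013). The step from 24 h to 24.5 h, -0.80, had groups that do not overlap but was not called (adjusted p = 0.0787).

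In lateral root GOGAT1 was lower in every later group than at 0 h, and in leaf and primary root its group mean was highest at 0 h as well. The 0 h libraries held 585, 416 and 397 TPM, of which the first is the library that stood apart. The values were 286, 241 and 249.6 TPM at 0.5 h, 185, 189.7 and 177 TPM at 3 h and 184, 201 and 162 TPM at 24 h. From 24.5 h on the 3 groups lay between 201 and 249 TPM and overlapped each other: 223, 235 and 212 TPM at 24.5 h, 229.5, 201 and 235 TPM at 48 h and 229.9, 249 and 248 TPM in the control. Every later library was below every library at 0 h. Without the library that stood apart GOGAT1 was below 0 h by a log2 fold change of -1.14 at 3 h (adjusted p = 2.41e-06) and of -1.16 at 24 h (adjusted p = 2.28e-06). With all libraries these were -1.32 (adjusted p = 0.000121) and -1.33 (adjusted p = 0.000133). At 24.5 and 48 h the changes of -1.04 and -1.05 with all libraries passed the fold threshold and those without it, -0.86 and -0.88, did not, with adjusted p between 2.67e-05 and 0.00113. In fits of only the groups compared, with all 3 libraries at 0 h, none of these 4 changes was called (adjusted p between 0.319 and 0.523), and the change at 48 h was -0.98 without 48 h replicate 2. At 0.5 h the change was -0.65 (SE 0.11, adjusted p = 0.000381, without the library), under the fold threshold.

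Primary root had the lowest tissue median of GOGAT1, 161 TPM, against 229.7 TPM in lateral root without that library and 479 TPM in leaf. None of its 11 comparisons there was called by limma, with 4 at an unadjusted p under 0.05. The libraries ran from 186 to 217 TPM at 0 h and from 116 to 136 TPM at 24 h, without overlap (-0.67, adjusted p = 0.0291, under the fold threshold). At 24.5 h they held 189.9, 122 and 227 TPM. The highest of these is replicate 3, the library with the high leaf marker sum and the many genes detected, and the part of these features in its GOGAT1 level was not tested.

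Ordered by group mean (lateral root without the library that stood apart), most neighbouring groups overlapped. For GS1-1 the neighbours without overlap were 3 h below 48 h and 24.5 h below 24 h in leaf, 24.5 h below 48 h and 48 h below 0.5 h in lateral root, and 24.5 h below 0 h in primary root. For GS1-3 they were 0 h below 24.5 h in leaf, 0.5 h below 48 h and 0 h below 24.5 h in lateral root, and 24.5 h below 24 h in primary root. For GOGAT1 they were 3 h below 24.5 h and 24.5 h below 48 h in leaf, 3 h below 48 h and 0.5 h below 0 h in lateral root, and none in primary root.

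The 3 GOGAT2 genes were low everywhere. Nothing in the sources used here says how reads that fit more than one of them were assigned, so the split among them is uncertain. GOGAT2-7G ran from 3.09 to 13.1 TPM in leaf and from 2.98 to 5.30 TPM in primary root. In lateral root it ran from 1.78 to 3.74 TPM in 20 libraries and was 10.2 TPM in the library that stood apart, a value within the leaf range. GOGAT2-K ran from 2.13 to 6.48 TPM in leaf, and was listed at 0 in 3 lateral root libraries (0.5 h replicate 1, 3 h replicate 1 and 48 h control replicate 2) and in 1 primary root library (24.5 h replicate 3). Its highest value in primary root was 2.3 TPM. In lateral root it was 3.59 TPM in the library that stood apart and at most 3.13 TPM in the other libraries. GOGAT2-4G ran from 3.96 to 11 TPM in leaf, 4.39 to 9.28 TPM in lateral root and 3.47 to 8.10 TPM in primary root.

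**Figure D3:**
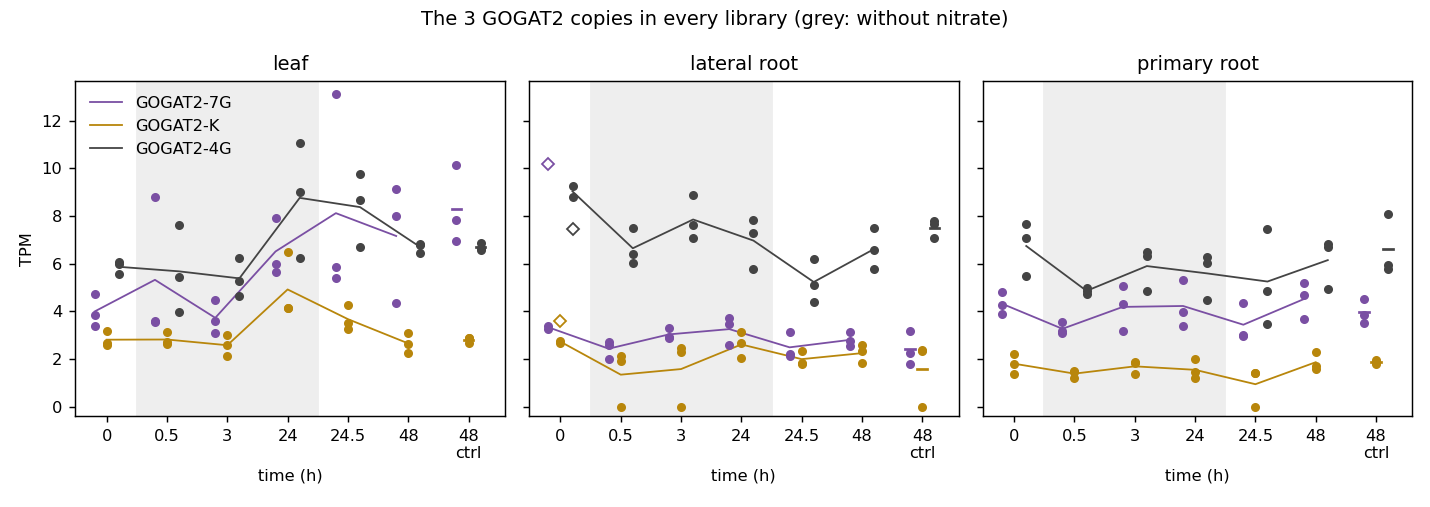
TPM of the 3 GOGAT2 genes in each library of the 3 tissues against the labelled time in hours (positions not to scale); points are libraries, lines join group means, short bars are the control means, and open diamonds, left out of the means, are the lateral root library 0 h replicate 1. All values lie at or under 13.1 TPM, GOGAT2-K is listed at 0 in 4 root libraries, and the diamond of GOGAT2-7G stands at 10.2 TPM.

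Over the 11 comparisons of each tissue (lateral root without the library that stood apart) the 3 GOGAT2 genes gave 99 tests, of which limma called 0, with 4 at an adjusted p under 0.05 and 11 at an unadjusted p under 0.05. GS1-1, GS1-3 and GOGAT1 gave 27 calls in the same number of tests. These tests share libraries, and the share of all genes called is given for each comparison below. The part of the low level in the absence of GOGAT2 calls was not tested. The 4 GOGAT2 changes that passed on the adjusted p alone were 3 of GOGAT2-K in leaf and 1 of GOGAT2-4G in lateral root. GOGAT2-K held 4.14, 6.48 and 4.14 TPM in leaf at 24 h, above all libraries at 0 h (0.61, adjusted p = 0.0493), above the control (0.61, adjusted p = 0.0266) and above 48 h recovery (change to 48 h -0.68, adjusted p = 0.0152). GOGAT2-4G in lateral root was -0.70 against 0 h at 24.5 h (adjusted p = 0.00752). On this log2(TPM + 1) scale a change of a gene at a few TPM is understated. GOGAT3 (SORBI_3005G150250) and GOGAT4 (SORBI_3009G225700), further glutamate synthase names in the study's lists, were lower still. GOGAT3 was listed at 0 in 19 leaf, 18 lateral root and 18 primary root libraries and did not exceed 0.562 TPM, and GOGAT4 ran from 0.279 to 1.64 TPM in primary root and up to 0.344 TPM in leaf.

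**Figure D4:**
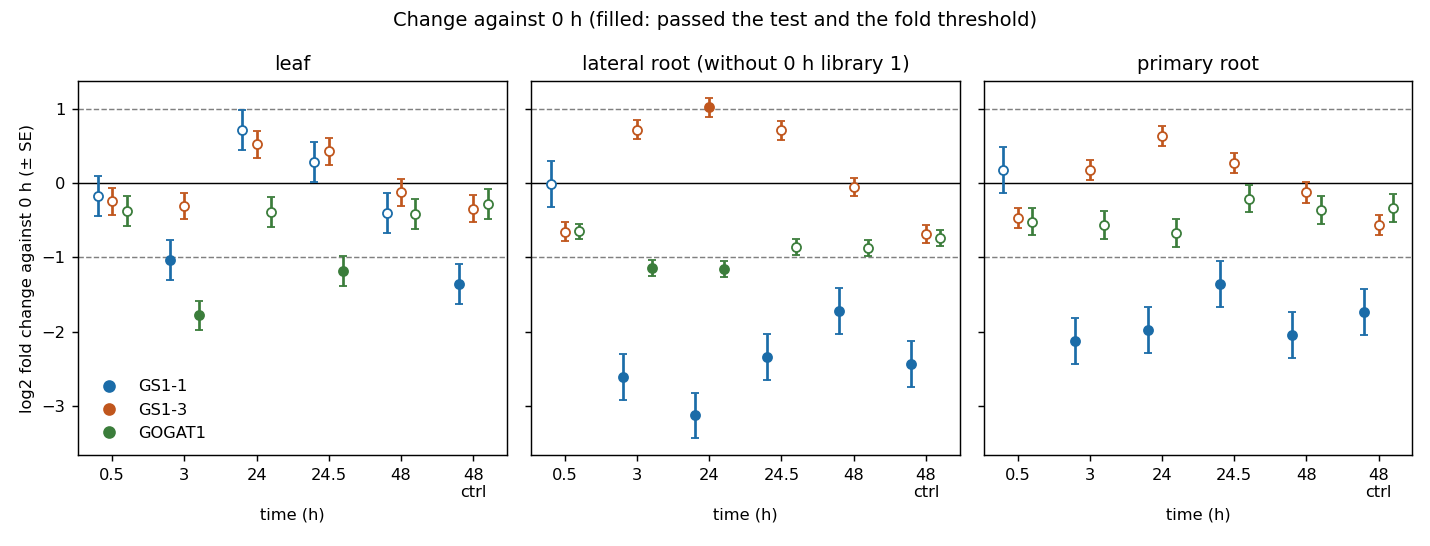
Log2 fold change (± SE) of GS1-1, GS1-3 and GOGAT1 against 0 h at each time and in the 48 h control, for leaf, lateral root (without 0 h replicate 1) and primary root; filled points passed the adjusted p and the fold threshold. The points of GS1-1 in both roots and of GOGAT1 in all 3 tissues lie below 0 from 3 h on, and GS1-3 in lateral root reaches 1.02 at 24 h.

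Counted against all genes tested in leaf (19882), 2 of the 6 members were called at 3 h against 0 h, where 8.12% of all genes were. At 24.5 h it was 1 member (4.36% of all genes), in the 48 h control 1 (5.71%), from 0.5 to 3 h 1 (3.61%), from 24 to 48 h 1 (8.08%) and between 24 h and the control 1 (7.93%). No member was called in leaf at 0.5 h (0% of all genes), 24 h (2.42%) or 48 h (5.22%) against 0 h, from 24 to 24.5 h (0.302%), or between 48 h and its control (0.0101%). At an unadjusted p under 0.05 those 5 comparisons had 0, 4, 0, 1 and 1 members. In primary root (23186 genes tested) 1 member was called against 0 h at 3 h (4.22% of all genes), 24 h (4.5%), 24.5 h (5.81%), 48 h (3.4%) and in the control (1.47%), as well as from 0.5 to 3 h (4.63%), GS1-1 in each, and GS1-3 between 24 h and the control (3.64%). No member was called there at 0.5 h against 0 h (5.37%), from 24 to 24.5 h (3.8%), from 24 to 48 h (4.73%) or between 48 h and the control (0.487%), with 2, 2, 1 and 1 members at an unadjusted p under 0.05.

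In lateral root without the library that stood apart (23017 genes tested) 2 members were called at 3 h against 0 h (7.54% of all genes), 3 at 24 h (8.21%), and 1 each at 24.5 h (10.9%), at 48 h (7.75%) and in the control (6.77%). From 0.5 to 3 h it was 2 (9.46%), from 24 to 48 h 2 (7.16%) and between 24 h and the control 1 (8.72%). No member was called at 0.5 h against 0 h (8.83%), from 24 to 24.5 h (3.68%) or between 48 h and the control (1.75%), with 3, 4 and 2 at an unadjusted p under 0.05. With all 21 libraries the members called were 1 at 3 h (6.87% of all genes), 2 at 24 h (9.43%), 1 at 24.5 h (13.2%), 1 at 48 h (7.23%), 1 from 0.5 to 3 h (5.05%), 1 from 24 to 48 h (2.12%) and 1 between 24 h and the control (3.62%). The comparisons against 0 h share the same 0 h libraries. The median log2 fold change of all genes was itself shifted against 0 h, by up to 0.16 in leaf and, with all libraries, 0.26 in lateral root (both in the 48 h control). It lay between -0.05 and 0.03 in lateral root without the library that stood apart and between -0.09 and -0.004 in primary root.

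GS1-1 and GOGAT1 differed between tissues in opposite directions. Averaged over the 7 groups, GS1-1 was lower in leaf than in primary root by a log2 difference of -2.54 (SE 0.27, adjusted p = 6.34e-12), and GOGAT1 was higher in leaf by 1.44 (SE 0.07, adjusted p = 1.59e-24). These 2 members passed in a comparison in which 54.1% of all genes did. The same 2 passed at 0 h, with -3.55 and 1.69 (57.7% of all genes), and in the 48 h control, with -3.18 and 1.75 (51.9%). GS1-3 differed by -0.14 between leaf and primary root, and this direction depended on the scaling: the median of all genes in this comparison was -0.72 in TPM, and GS1-3 was 0.61 higher in leaf after median-of-ratios scaling and -0.51 after quantile normalization. GS1-1 and GOGAT1 kept their directions under these scalings, at -1.79 and -2.14 for GS1-1 and at 2.19 and 1.65 for GOGAT1. The GOGAT2 genes were 0.45 (GOGAT2-7G), 0.69 (GOGAT2-K) and 0.17 (GOGAT2-4G) higher in leaf in TPM, under the fold threshold. This too depended on the scaling. After median-of-ratios scaling they were 1.08, 1.23 and 0.83, with the first 2 called, and after quantile normalization 1.41, 1.62 and 1.09, all 3 called. GOGAT2-K was also called with a pseudocount of 0.1 (1.06).

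Lateral root exceeded primary root in GS1-1. Over the 7 groups the log2 difference was 1.14 (adjusted p = 0.000493, the 1 member called, with 4.79% of all genes) and without the library that stood apart 1.46 (adjusted p = 1.58e-14, 4.67% of all genes). GOGAT1 was 0.64 higher in lateral root (adjusted p = 1.16e-10), under the fold threshold, and GS1-3 was level between both (0.01, adjusted p = 0.859). At 0 h the result for GS1-1 turned on that library, from -0.30 (adjusted p = 0.768) to 1.91 without it (adjusted p = 3.63e-05), while GOGAT1 was 1.18 higher with it (adjusted p = 1.55e-06) and 1.01 higher without it (adjusted p = 9.87e-05). At 0 h 1 member was called with all libraries (23.4% of all genes) and 2 without it (11.8%). In the 48 h control GS1-1 differed by 1.21, which was not called with all libraries (adjusted p = 0.354; 2.3% of all genes called) and was called without the library (adjusted p = 0.00602; 3.58%).

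Whether a change differed between tissues was tested as an interaction, on the adjusted p alone. GOGAT1 was lowered further in leaf than in primary root: the difference between both changes was -1.22 at 3 h against 0 h (adjusted p = 0.00184; 1 member, 7.51% of all genes) and -0.98 at 24.5 h against 0 h (adjusted p = 0.013; 1 member, 6.11%). From 0.5 to 3 h it was -1.36 for GOGAT1 (adjusted p = 0.000616) and -0.70 for GS1-3 (adjusted p = 0.0339), 2 members where 4.11% of all genes passed. On the return of nitrate, from 24 to 24.5 h, GOGAT1 changed by -0.80 in leaf and 0.46 in primary root, a difference of -1.26 (adjusted p = 0.00318; 1 member, 2.11%). Neither of these changes was called in its own tissue. The differences at 24.5 h use the primary root group that holds replicate 3, the library with the many genes detected, and its part was not tested. The interaction fits hold the spread of all 3 tissues, so the library that stood apart entered them, and without it more of all genes passed (16.1, 14.9, 10.4 and 7.7% in these 4 comparisons).

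Without that library the course of GS1-1 also differed between leaf and primary root. The difference was 2.70 at 24 h against 0 h (adjusted p = 7.91e-05; 8.5% of all genes passed), 1.64 at 24.5 h (adjusted p = 0.00653), 1.65 at 48 h (adjusted p = 0.0138; 5.47%), 1.44 from 0.5 to 3 h (adjusted p = 0.0215) and 2.33 between 24 h and the control (adjusted p = 0.00019; 16.1%). At 24.5 h against 0 h GOGAT2-4G (0.78, adjusted p = 0.0369) and GOGAT2-7G (1.05, adjusted p = 0.0298) passed as well. In each case the change of GS1-1 in leaf was above that in primary root. Between lateral and primary root 1 difference passed with all libraries, GOGAT1 at 24.5 h against 0 h (-0.83, adjusted p = 0.0342; 9.43% of all genes), and it did not pass without the library (-0.65, adjusted p = 0.23; 0.478%).

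In the first 0.5 h after the return of nitrate no change of a cycle gene passed both thresholds, while genes of the steps before them in the pathway rose in the roots. From 24 to 24.5 h 0 of 6 members were called in any tissue by limma, with the counts at an unadjusted p given above. Of 5 other nitrate assimilation genes tested (GOGAT4 not counted), 4 rose in primary root (2.85% of all genes rose there), 3 in lateral root without the library that stood apart (2.68%) and 0 in leaf (0.126%). In leaf 3 of the 5 (RFNR, UPM2 and NR2) had an unadjusted limma p under 0.05. RFNR, which passes electrons to ferredoxin in roots, rose by 2.33 in lateral root (376 ± 76.9 to 1866 ± 63.5 TPM) and by 2.15 in primary root. NIR1, nitrite reductase, rose by 2.00 and 1.99, and UPM2, a methyltransferase on the way to the siroheme cofactor of nitrite reductase, by 2.3 in both roots. With all libraries RFNR was not called in lateral root (adjusted p = 0.116), and NIR1 and UPM2 were. The median change of the tested list was 0.58 in leaf, 2.00 in lateral and 1.67 in primary root (GOGAT4 included there), against 0.00, -0.06 and 0.04 over all genes. NR1, a nitrate reductase, rose by 1.36 in primary root and changed by 0.69 in lateral root (adjusted p = 0.152). Among the members the changes in the roots ran from -0.49 (GOGAT2-K in primary root, listed at 0 in replicate 3 at 24.5 h) to 0.78 (GS1-1 in lateral root). The primary root changes from 24 to 24.5 h, here and below, use the group that holds this replicate 3. It is the library with the high leaf marker sum and the many genes detected, and its part was not tested. The difference between members and other genes was not tested.

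**Figure D5:**
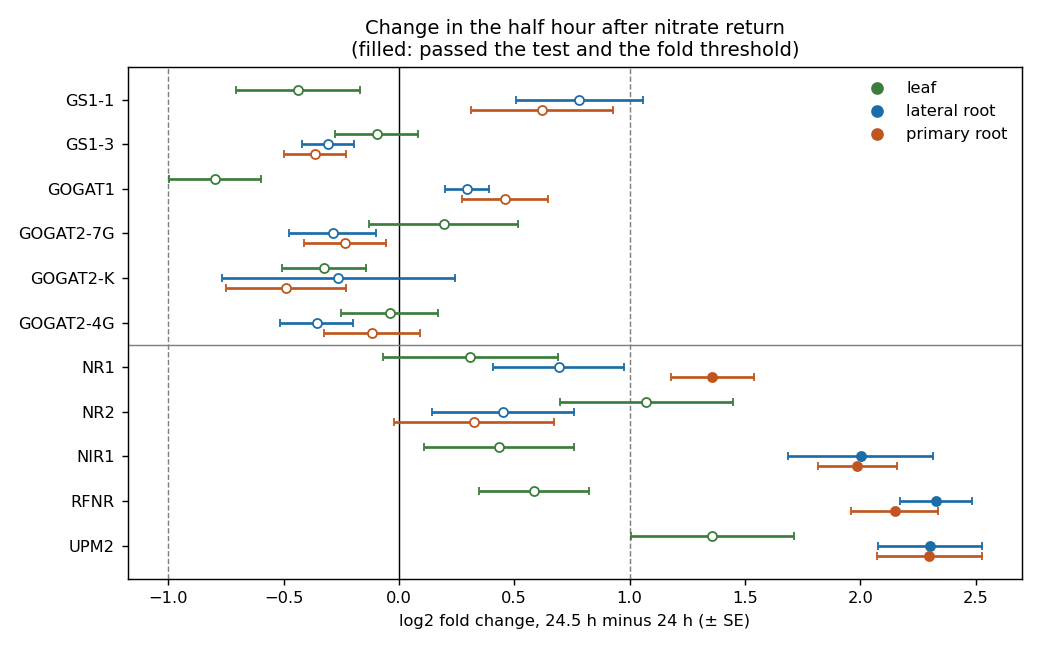
Log2 fold change (± SE) from 24 h without nitrate to 24.5 h, after its return, for the 6 genes and for NR1, NR2, NIR1, RFNR and UPM2 in the 3 tissues (lateral root without 0 h replicate 1); filled points passed the adjusted p and the fold threshold. NIR1, RFNR and UPM2 lie near or above 2 in both roots, whereas all points of the 6 genes lie between -0.80 and 0.78 and none is filled. The primary root group at 24.5 h holds replicate 3, the library with the high leaf marker sum.

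At 3 h without nitrate the other assimilation genes were lower too. RFNR, UPM2 and NIR1 fell in all 3 tissues. Their log2 fold changes against 0 h were -1.80, -2.12 and -2.58 in leaf, then -2.50, -2.74 and -1.68 in lateral root (without the library that stood apart), and -2.63, -2.62 and -2.43 in primary root. In primary root NR1 and NR2 fell as well, with -1.66 and -1.18, so that 5 of 5 genes tested besides GOGAT4 were called lower there (2.42% of all genes were), 3 of 5 in lateral root (3.76%) and 3 of 5 in leaf (2.58%). With all libraries the fall of RFNR in lateral root was not called (-1.17, adjusted p = 0.246).

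Of the 7 amino acid genes tested, AlaAT1, an alanine aminotransferase, fell in every tissue at 3 h, with log2 fold changes of -3.49 (leaf), -3.85 (lateral root without that library) and -2.14 (primary root). AspAT, an aspartate aminotransferase, rose by 1.40 in leaf and, without that library, by 1.28 in lateral root, and GDH2, a glutamate dehydrogenase, rose by 2.09 in primary root. ASN3, an asparagine synthetase, which uses the glutamine that the cycle makes, fell in lateral root at 3 h without that library (-1.56) and was the last call of the list at that time. With all libraries AspAT (-0.16, adjusted p = 0.901) and ASN3 (0.08, adjusted p = 0.957) were not called in lateral root at 3 h, and AlaAT1 was. On the return of nitrate ASN3 rose by 1.26 and GDH2 by 2.28 in lateral root without that library, neither of them called with all libraries (adjusted p = 0.817 and 0.129), and GDH2 rose by 1.66 in primary root. Of 5 ammonium transporters tested, AMT1.1a fell at 3 h in lateral root (-1.73 without that library) and primary root (-1.46) and rose by 1.68 and 1.56 from 24 to 24.5 h. With all libraries its fall in lateral root was called (-2.45) and its rise there was not (adjusted p = 0.23). AMT1.3 fell in primary root at 3 h (-1.40), and AMT2.3 rose in leaf by 2.19. The leaf level of AMT2.3 was near the floor, with a median of 0.412 TPM and 6 of 21 libraries at 1 TPM or more. At 3 h 8.12% of all genes were called in leaf, 7.54% in lateral root without that library and 4.22% in primary root. From 24 to 24.5 h it was 3.68% in lateral root without that library and 3.8% in primary root.

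Among the members themselves, values centred on the tissue mean were compared across libraries as a description, since libraries of a time course share their time points. GS1-1 and GS1-3 had r = 0.85 over 21 leaf libraries, -0.57 over 20 lateral root libraries and -0.37 over 21 primary root libraries. In leaf both were thus high and low together, and in the roots they were not. GS1-1 and GOGAT1 had r = 0.76 in lateral root, 0.20 in leaf and 0.44 in primary root. GOGAT2-7G and GOGAT2-4G had r = 0.63 over the 62 libraries, in which reads shared by similar genes may take part and were not tested.

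The 3 genes whose pattern was most like each main member were sought among 18323 genes over the same 62 libraries by Pearson's r of centred log2(TPM + 1). For GS1-1 they were SORBI_3002G160300 (r = 0.79), SORBI_3006G085300 (r = 0.74) and SORBI_3002G051700 (r = 0.74). For GS1-3 they were SORBI_3008G107200 (r = 0.86), SORBI_3003G071600 (r = 0.84) and SORBI_3004G111100 (r = 0.82), and for GOGAT1 SORBI_3006G064100 (r = 0.82), SORBI_3004G032400 (r = 0.79) and SORBI_3008G014100 (r = 0.78). For GOGAT2-7G the nearest was SORBI_3007G126200 (r = 0.74), for GOGAT2-K SORBI_3001G261496 (r = 0.79) and for GOGAT2-4G SORBI_3009G260500 (r = 0.75). These values pool the tissues. The match of GOGAT2-K had r = 0.97 in lateral root, 0.47 in leaf and -0.03 in primary root. The part of its 3 lateral root libraries at 0 was not tested. For the first match of GS1-3 r was 0.96, 0.44 and 0.94, and for that of GOGAT1 it lay between 0.81 and 0.86. The tables used here give these genes no names.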

How the data were processed

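RNA of 63 libraries was measured. Per the methods and labels, the deposited TPM values were made by the authors with StringTie after trimming (Trimmomatic) and alignment to BTx623 (STAR). DESeq2 is also named in the submitters' notes; no counts were used here, so depth per sample is unknown and counting error cannot be stated. For each tissue, log2(TPM + 1) of every gene that reached 1 TPM in 3 or more libraries entered limma 3.58.1 (R 4.3.3, eBayes with trend), with all 7 groups fitted together and Benjamini-Hochberg adjustment over all genes tested. Tissue differences and interactions were fitted over all 63 libraries. The thresholds, adjusted p under 0.05 and absolute log2 fold change over 1, follow the study. Replicates are described as biological. The 6 genes and the lists were chosen with earlier results of these data known; the genes named are the members, the fixed lists and the 3 genes most like each member. Alternatives were other scalings, pseudocounts, filters, call rules, fits, a replicate block and each library left out; the block without lateral root 0 h replicate 1 was added after seeing the data. The fit was tested on simulated data. Tables were handled with pandas 2.3.3 and NumPy 2.4.6 in Python 3.11.15, and figures drawn with matplotlib 3.10.9. No sequences or coordinates were used here.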

Additional observations from a re-analysis of the deposited data

Results flagged for a closer look

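6 changes differed between tissues by the interaction test, all relative to primary root and with all libraries. They came from 6 members, each tested in 11 comparisons for leaf and 11 for lateral root. In the comparisons concerned between 2.11 and 9.43% of all genes passed. For GOGAT1 in leaf the differences were -1.22 at 3 h against 0 h, -0.98 at 24.5 h against 0 h, -1.36 from 0.5 to 3 h and -1.26 from 24 to 24.5 h. Those at 24.5 h use the primary root group that holds replicate 3, the library with the high leaf marker sum. GS1-3 differed by -0.70 from 0.5 to 3 h, with a change of -0.06 in leaf and 0.64 in primary root. GOGAT1 in lateral root differed by -0.83 at 24.5 h against 0 h, which did not pass without lateral root 0 h replicate 1 (-0.65, limma adjusted p = 0.23). Groups of 3 libraries were not searched for single values far from the rest.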

How the results depend on the processing

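Of the changes called with or without lateral root 0 h replicate 1, 7 of 7 in primary root, 4 of 7 in leaf and 2 of 15 in lateral root kept their call under every alternative run. The lateral root alternatives kept that replicate, unless it was left out or only groups other than 0 h were fitted. The 7 changes of GS1-1 in lateral root were called only in fits without it. The lateral root count thus depends on that library as well as on the processing, and most alternatives were not rerun without it. Calls of the 6 members (leaf, lateral root, primary root) numbered 7, 8 and 7. On the adjusted p alone they were 12, 15 and 13, and in lateral root they were 5 with only the groups compared in the fit. Leaving out each library in turn gave 6 to 8 calls in leaf, 6 to 13 in lateral root (6 without 24 h replicate 2, 11 without 0 h replicate 2, 13 without 0 h replicate 1 or 3) and 7 to 7 in primary root. Within each tissue no pairing by replicate number was seen. Deviations of same-numbered libraries had median correlations of -0.008, -0.020 and -0.027, with single values from -0.42 to 0.38. These medians cannot exclude pairing in part of the groups, and that of lateral root includes 0 h replicate 1. The replicate block gave 7, 8 and 7 calls, or 13 in lateral root without 0 h replicate 1, a fit chosen after seeing the data. Pairing between tissues by replicate number was not checked. The main fits over all 63 libraries treat them as independent. The lateral root change of GS1-1 at 48 h against 0 h turned from 0.49 to -1.72 without 0 h replicate 1 (-1.84 with the block), and ran from -1.72 to 1.63 over the libraries left out. With only the groups compared, the 4 lateral root calls of GOGAT1 against 0 h had adjusted p between 0.319 and 0.523, and the cause was not tested. Tissue differences called were 8, then 16 after quantile normalization and 10 without 0 h replicate 1. Changes that differed between tissues were 6, then 10 and 12. Of the 18 genes most like a member, 11 were shared when all 63 libraries were used and 10 with Spearman's rho. Mean TPM of GS1-1 in lateral root at 0 h was 1995 with and 2978 without that replicate. TPM keep no depth, so low genes such as the GOGAT2 copies carry an error that cannot be given.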
